A study of Ovis aries with 10 samples.

Results

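The genes described here were those of the pregnant ewe's pituitary gland that were higher in each of 5 ewes on restricted feed (TR) than in any of 5 ewes fed normally (CON), with a difference of the group means of at least 1 on the log2 scale. They numbered 122 of the 17866 genes in the tables, and of the 14884 genes kept by a filter on low values. All 10 animals were Hu sheep labelled as wild type and as being in late gestation, at day 115 in the labels. In the study's methods, day 115 is when restriction began, and the ewes were killed later in gestation, carrying more than 1 lamb each. Each ewe gave 1 RNA-seq library of pituitary tissue, and the study's methods do not state which part of the gland was taken. The level of a gene was its FPKM, its fragments scaled to its transcript length and to the mapped fragments of the library. TR ewes received a fixed fraction of normal intake and CON ewes ate freely.

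Members were selected on the TR against CON contrast itself. Each library was divided by a size factor, and the result is called scaled FPKM here. A member had its lowest TR value above its highest CON value, and a mean of log2(scaled FPKM + 0.1) higher in TR by at least 1, outside the 200 genes of highest mean FPKM. Without overlap and higher in TR stood 475 genes, 3.19% of those kept. Higher in TR by at least 1 stood 1292 genes, 8.68%, and both conditions held for 0.820%, which are the members. None of the 122 was lost through the limit on abundant genes. The mirrored rule gave 63 genes (0.423%) that were lower in TR, and 62 after that limit. These numbers describe the choice and carry no test. The count of members rested on single libraries: the same rule gave 373 genes without CON4, 240 without TR3, 187 without CON1, and 105 to 180 without any other 1 library.

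The pituitary gland links the brain with the endocrine organs. Its anterior lobe holds separate cell types that release growth hormone, prolactin, adrenocorticotropic hormone, thyroid stimulating hormone and the gonadotropins, beside supporting, vascular and immune cells. In undernourished mammals the gland is known to alter its hormone output, with signals to growth and reproduction among those affected. The tables list genes under numbered IDs, of which 0 of 17866 matched the sheep gene table used for names. No member could therefore be given a gene symbol or a role, and the gland's defining markers were not examined. Only 2 members are given by ID, that of highest mean level and that of widest gap between the groups, and the others by their values. In whole tissue, more cells of a type and more RNA per cell cannot be told apart.

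The libraries varied in size factor and in general profile, and differences between the groups cannot be told apart from the feeding. None of the 5 library measures tested differed between the groups at an adjusted p under 0.05. Size factors were 0.985 to 1.18 in TR and 0.831 to 1.07 in CON (exact two-sided permutation test of the means, p = 0.071, adjusted p = 0.18 over 5 measures). Within CON they were 1.07 and 1.06 in CON1 and CON4, against 0.831 to 0.877 in CON2, CON3 and CON5. On axis 1 of a principal component analysis of the 14762 kept genes that are no member (59.0% of the variance), the TR libraries lay between -81.9 and 2.25. CON1 and CON4 lay at -27.5 and -42.1, and CON2, CON3 and CON5 at 111.2, 53.1 and 100.3. CON1 and CON4 thus stood among the TR libraries on that axis. The part of these library differences in the results below was not tested.

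Members were mostly genes of low level. Their mean deposited FPKM over the 10 libraries was 0.0801 to 53.4, with a median of 2.03, against a median of 5.83 over all kept genes. Below 1 FPKM on average lay 37 members (30.3%, against 18.1% of all kept genes), 71 lay between 1 and 10, and 14 at 10 or more (11.5%, against 36.1%). Above 1 FPKM in all 10 libraries stood 31 members. The difference between the groups on the log2 scale had a median of 1.39 over the members, with quartiles of 1.14 and 1.77 and a highest value of 3.93, and the median over all kept genes was 0.05. The ratio of mean scaled FPKM, TR over CON, had a median of 2.64. A difference of at least 2 was held by 23 members and one of at least 3 by 4.

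The distance between the groups was mostly narrow. The gap, taken as the lowest TR value minus the highest CON value on the log2 scale, had a median of 0.21 over the members. It was under 0.1 in 36 members, over 0.5 in 18 and over 1 in 4. For comparison, the 5 TR ewes of a member spanned a median of 0.88 and the 5 CON ewes a median of 1.48. Over all kept genes these spans were 0.79 in TR and 1.04 in CON, so that CON was the wider group among the members (93 of 122, 76.2%) and among all kept genes (69.1%). At the edge of the rule, the smallest member difference was 1.001, and the largest of a gene without overlap that missed it was 0.998. The smallest gap of a member was 0.00035, and the nearest overlapping gene with a sufficient difference lay at -0.00059. Within 0.1 above the limit on the difference lay 21 members, and as many genes without overlap, 21, lay within 0.1 below it.

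**Figure D1:**
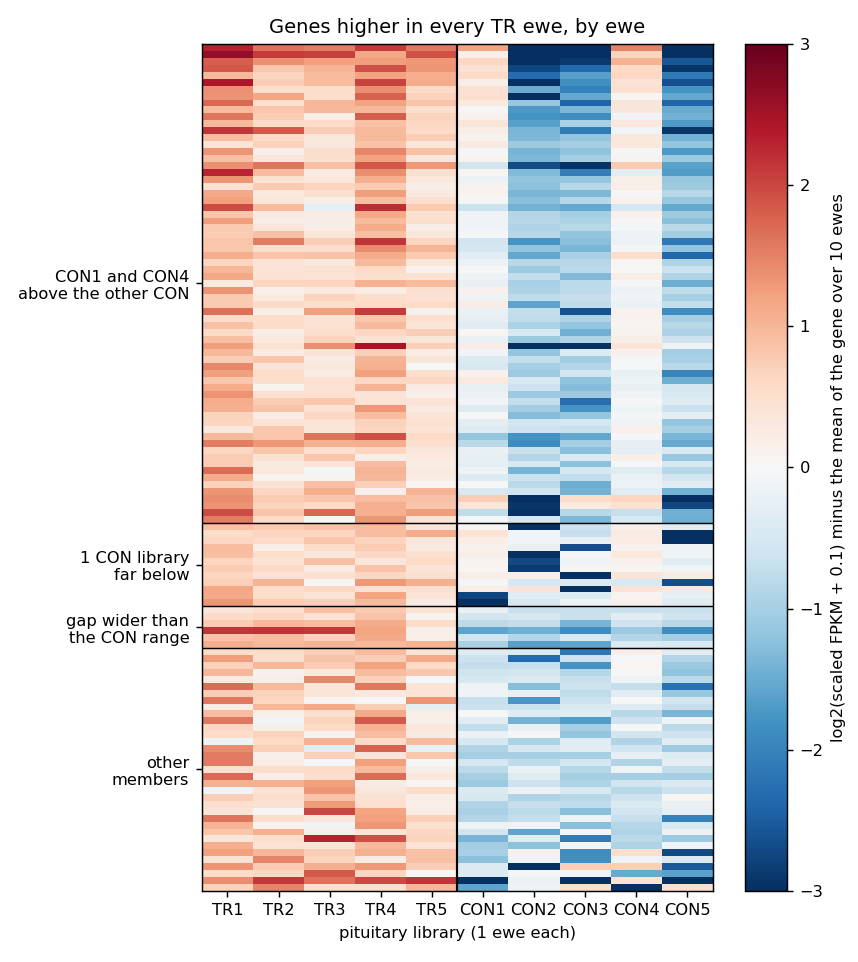
Heat map of the 122 members (rows) in the 10 pituitary libraries (columns, TR left of CON). Colour gives log2(scaled FPKM + 0.1) minus the mean of the gene over the 10 ewes, drawn from -3 to 3. Rows are grouped by how the CON ewes lay: CON1 and CON4 above the other CON ewes (69 rows), 1 CON library far below the rest (12), a gap wider than the CON range (6) and other members (35). CON1 and CON4 are paler than CON2, CON3 and CON5 in the top block.

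The member of highest level was gene8076. Its scaled FPKM was 78.9, 73.2, 80.2, 80.8 and 57.7 in TR1 to TR5, against 42.2, 12.3, 16.0, 52.1 and 14.2 in CON1 to CON5. TR5 was the lowest TR ewe and lay just above CON4, and CON2, CON3 and CON5 lay far below both. The mean was 74.2 ± 9.67 in TR and 27.3 ± 18.5 in CON (SD, n = 5 each), a difference of 1.69 on the log2 scale (standard error 0.39). In alternatives added after the values were seen, this difference was 0.65 with CON2, CON3 and CON5 left out and 2.38 with CON1 and CON4 left out, CON1 and CON4 having been picked as nearest the TR ewes. In the second most abundant member CON1 and CON4 were also the highest CON ewes, at lower contrast. It stood at 47.7, 40.1, 55.9, 49.4 and 31.1 scaled FPKM in TR1 to TR5, against 29.5, 17.1, 10.8, 26.6 and 24.2 in CON1 to CON5.

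The member of widest gap was gene21438. Its scaled FPKM was 3.32, 1.499, 2.80, 1.75 and 2.003 in TR1 to TR5, against 0.417, 0, 0.391, 0.447 and 0.226 in CON1 to CON5. The lowest TR ewe was 3.35 times the highest CON ewe. The gene was listed at 0 in CON2, which in FPKM can be a missing estimate as well as an absent transcript. The difference was 2.75 on the log2 scale (standard error 0.48). It was 1.32 with a pseudocount of 1 and 3.61 with one of 0.01.

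The member of second-widest gap was the most even within TR. It had 5.01, 4.66, 4.77, 4.64 and 4.88 scaled FPKM in TR1 to TR5, against 1.12, 0.679, 0.701, 1.69 and 1.63 in CON1 to CON5. The TR ewes spanned 0.11 on the log2 scale, the smallest TR span among the members, and the ratio of means was 4.11. For this gene CON1 and CON4 did not stand together, since CON5 lay beside CON4. The member of fourth-widest gap was also even within both groups, at 6.27, 7.32, 7.01, 7.98 and 5.37 scaled FPKM in TR1 to TR5, against 2.09, 2.19, 1.32, 2.36 and 2.01 in CON1 to CON5. Among all kept genes it alone passed both limma thresholds, a fold over 2 and an adjusted p under 0.05 (adjusted p = 0.034, 0.00672% of those tested). That call was lost in at least 8 of the 10 fits that left out 1 library, as no member was called in these 8. At an unadjusted p under 0.05 stood 117 of the 122 members, beside 2633 higher genes, 17.7% of those tested. As the rule used this contrast, the calls describe the members and do not test them.

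**Figure D2:**
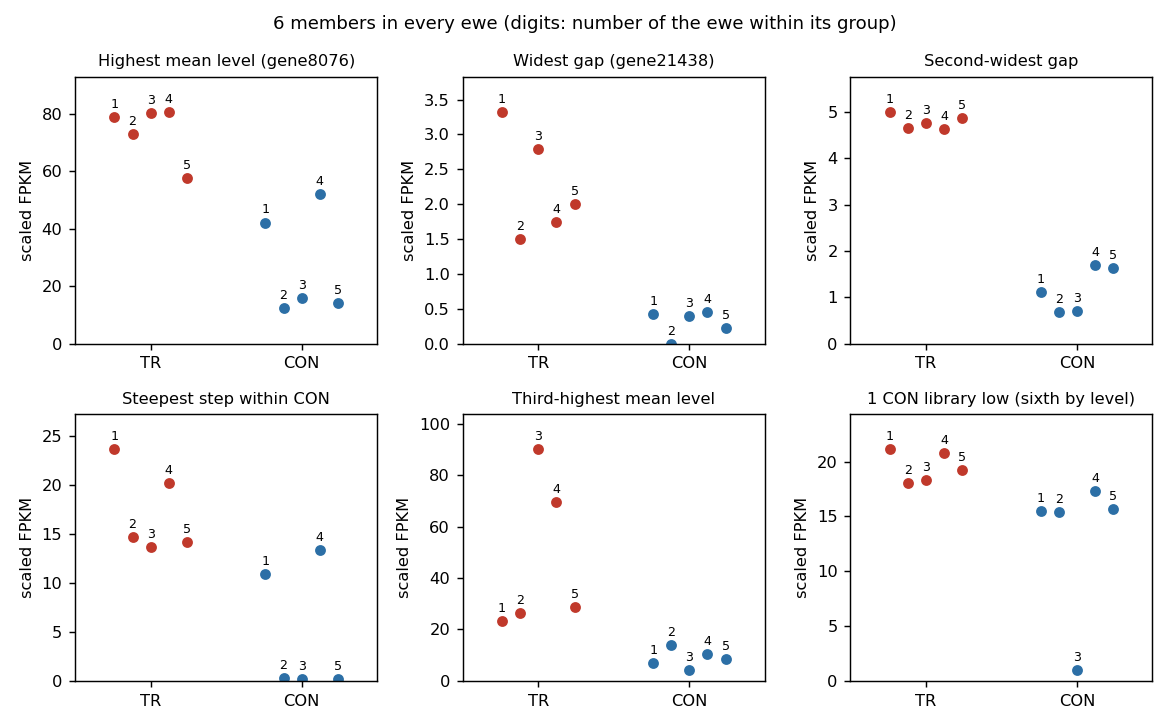
Scaled FPKM of 6 members in every ewe, TR left of CON, with 1 point per ewe and the ewe's number beside it; each panel has its own axis from 0. Every TR point lies above every CON point, while the distance varies. The lowest TR ewe is 3.35 times the highest CON ewe in the panel of widest gap and 1.02 times in that of the steepest step within CON.

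The 122 members differed most in how the CON ewes lay among themselves. In 76 of them (62.3%) both CON1 and CON4 were above CON2, CON3 and CON5, an order seen in 33.2% of all kept genes. In 101 members (82.8%, against 46.3% of all kept genes) the highest CON ewe was CON1 or CON4, with CON4 in 74. This was not particular to the members. Of the 1170 genes higher by at least 1 that overlapped, 1001 did so only through CON1 or CON4. In those 1001 the highest CON ewe was therefore also CON1 or CON4. The lowest CON ewe was CON2, CON3 or CON5 in 39, 37 and 36 members. The mirror image stood among the 62 genes that were lower in TR. There CON1 and CON4 were both below the other CON ewes in 34 (54.8%, against 27.1% of all kept genes). These shares were not tested, because the rule used the same CON values.

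In the median member CON1 and CON4 lay about midway between the other CON ewes and the TR group. The rule keeps every CON ewe of a member below every TR ewe, and this pair was picked as nearest the TR ewes. The positions are therefore bounded by the choice, and none over other genes is given beside them. With the mean of CON2, CON3 and CON5 set at 0 and the TR mean at 100%, the median position over the members was 48.4% for CON1 (quartiles 17.4 and 67.8%) and 55.9% for CON4 (quartiles 36.0 and 72.1%). CON4 was nearer the TR mean in 74 members and CON1 in 57. The median level of the members in each library shows the same order. It was 2.61 to 3.32 scaled FPKM in the TR libraries, 1.14 and 1.60 in CON1 and CON4, and 0.622 to 0.672 in CON2, CON3 and CON5. The summed scaled FPKM of the members was 647.3 to 917.6 in TR and 213.9 to 471.2 in CON, and the groups did not overlap, which the rule fixes.

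**Figure D3:**
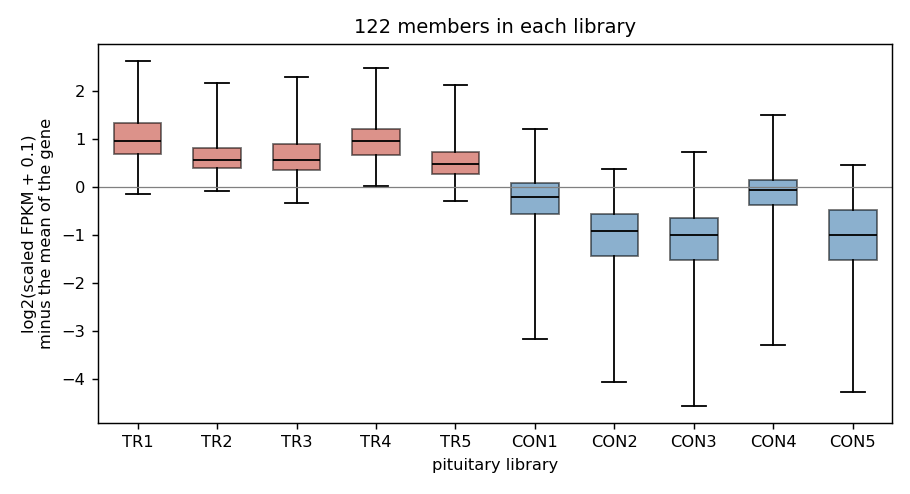
Distribution of the 122 members in each library, as log2(scaled FPKM + 0.1) minus the mean of the gene over the 10 ewes. Boxes give the quartiles, the line the median and whiskers the full range, for the TR libraries (red, left) and the CON libraries (blue, right). The medians are 0.48 to 0.97 in TR, -0.20 and -0.05 in CON1 and CON4, and -1.01 to -0.91 in CON2, CON3 and CON5.

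In a few members CON1 and CON4 stood far from the other CON ewes. In 18 members CON1 and CON4 exceeded the other CON ewes by at least 1 on the log2 scale, in 6 by at least 2 and in 3 by at least 3. Over all kept genes these steps were seen in 6.87%, 1.77% and 0.343%. The steepest was the twelfth member by mean level, at 23.6, 14.7, 13.6, 20.2 and 14.1 scaled FPKM in TR1 to TR5. In the CON group it had 10.9 and 13.3 in CON1 and CON4, and 0.251, 0.234 and 0.147 in CON2, CON3 and CON5. The highest CON ewe thus lay close to the lowest TR ewe, and the difference of the means was 3.66. The next was the member of largest difference (3.93), with 23.2, 16.0, 15.5, 8.31 and 14.2 scaled FPKM in TR1 to TR5. It stood at 4.27 and 5.92 in CON1 and CON4, against 0.127, 0.254 and 0.301 in CON2, CON3 and CON5. The remaining member had 4.14, 3.08, 2.80, 2.84 and 2.94 in TR1 to TR5, 1.77 and 2.41 in CON1 and CON4, and 0.0390, 0.0639 and 0.106 in CON2, CON3 and CON5. In all 3 the CON ewes spanned more than the TR ewes, although TR1 to TR5 of the member of largest difference themselves spanned 1.47 on the log2 scale.

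In another 12 members a single CON library lay at least 2 below the other 4 on the log2 scale (1.38% of all kept genes had such a library). It was CON2 in 4, CON3 in 3, CON5 in 3, CON1 in 2 and CON4 in none of these 12. The sixth member by mean level was of this kind. It had 21.1, 18.0, 18.3, 20.8 and 19.2 scaled FPKM in TR1 to TR5, against 15.5, 15.4, 0.963, 17.3 and 15.7 in CON1 to CON5. Apart from CON3, the CON ewes were only slightly lower than the TR ewes. The ratio of means was 1.502, the smallest among the members. Another had 12.8, 8.32, 8.82, 7.76 and 8.04 in TR1 to TR5, against 6.54, 7.44, 0.147, 7.62 and 7.16 in CON1 to CON5, again with CON3 alone far below. With the scaling kept, 45 of the 122 members fell under a difference of 1 when some 1 library was left out, with 22 doing so without CON3, 19 without CON5 and 16 without CON2.

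A gap that was wide beside the spread of the CON ewes was rare. In 6 members the gap was wider than the span of the 5 CON ewes, and in 2 of these also wider than the span of the TR ewes. The 2 were the members of second- and fourth-widest gap given above. Some of the 6 had CON values near or under the 0.1 added before the log, which narrows the CON span. Their highest CON values were 0.0382, 0.0707 and 0.178 scaled FPKM, and the first 2 passed the filter through the TR ewes alone. The narrowest gap of these 6 was that of a member, at 3.86, 3.91, 3.41, 4.63 and 2.66 scaled FPKM in TR1 to TR5, against 1.68, 1.73, 1.53, 2.003 and 1.63 in CON1 to CON5. The TR ewes spanned at most 1 on the log2 scale in 71 members, the CON ewes in 25, and both groups in 11.

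Members near silence in CON formed a small set. Listed at 0 in at least 1 CON library were 18 members (9 in 1 library, 5 in 2, 2 in 3 and 2 in 4), while the rule leaves no member at 0 in a TR library. Per CON library, 3 to 11 of the 122 members were listed at 0, beside 98 to 265 of the 14884 kept genes. The part of the members' low level in this was not tested. Under 0.1 FPKM in every CON library were 4, which passed the filter through the TR ewes alone, so that they had to differ. The most abundant of these 4 had 1.49, 1.54, 1.47, 0.725 and 0.306 scaled FPKM in TR1 to TR5. In CON1 to CON5 it stood at 0.0212, 0.0334, 0, 0.0707 and 0. Its TR ewes themselves spanned 2.01 on the log2 scale. The least abundant of all members was another, at 0.102 to 0.201 in TR, with 0.0382 in CON1 and 0 in the other CON ewes. In all, 6 members were listed at 0 in a CON library although another CON library had 0.5 FPKM or more. One of these 6 had 2.26, 3.79, 2.68, 3.41 and 3.83 scaled FPKM in TR1 to TR5, against 0, 0.696, 0, 1.09 and 0 in CON1 to CON5. As the tables hold no read numbers, how many fragments lie behind such values is unknown.

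Within the TR group no single order held for most members. TR1 or TR4 was the highest TR ewe in 50 and 47 members, and both were above TR2, TR3 and TR5 in 60 (49.2%, against 28.0% of all kept genes). The lowest TR ewe was TR3 in 42 members, TR5 in 37 and TR2 in 26. Over all kept genes these were lowest in 28.6%, 16.7% and 14.4%. Both orders, TR1 and TR4 high and CON1 and CON4 high, were held by 44 members. No share over all kept genes stands beside that count, or beside those of the highest single TR ewe, so they are not read further. Over the 7381 pairs of members, the median correlation between members across the 5 TR ewes was 0.37, and 0.48 across the 5 CON ewes. For the 62 genes lower in TR it was 0.09 in TR and 0.44 in CON, and for all kept genes (1 in 5 taken) 0.00 in both groups. These describe 5 points each that share library and scaling, and carry no test.

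Another pair of TR ewes, TR3 and TR4, was highest in 13 members, a share (10.7%) near that of all kept genes (8.12%). The third most abundant member was one of them, at 23.4, 26.4, 90.1, 69.7 and 28.8 scaled FPKM in TR1 to TR5, against 6.86, 14.1, 4.18, 10.3 and 8.43 in CON1 to CON5. TR3 and TR4 stood well above the other TR ewes, and CON2 rather than CON4 was the highest CON ewe. A less abundant member with 3.41, 2.68, 10.8, 6.09 and 3.04 in TR1 to TR5 had 1.29, 1.47, 1.03, 1.71 and 2.18 in CON1 to CON5. In the fourth most abundant member TR3 stood alone, at 53.2 against 19.5 to 30.7 in the other TR ewes and 11.8 to 18.7 in the CON ewes.

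Many genes missed membership by few ewes. Of the 1292 genes higher by at least 1, 1170 overlapped between the groups. Leaving out some 1 library would have set 320 of these apart, with CON4 doing so for 166, TR3 for 90, TR5 for 43 and CON1 for 38. Without both CON1 and CON4, 1001 of the 1170 had no overlap. CON1 and CON4 were picked as the CON ewes nearest the TR group, so that leaving them out widens the contrast by construction. Leaving out any library can only make a lack of overlap easier to meet, in every gene. No share over all kept genes stands beside these counts, so whether they exceed that was not tested. Conversely, 353 genes without overlap were outside the members for their size, with a median difference of 0.55.

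Such genes were also read in a ewe that had no part in choosing them. The rule was applied to each 9 libraries and the genes so chosen were looked up in the tenth. That ewe was set against the other libraries, whose values the rule had used. For a left-out TR ewe, the choice favours low values in every CON ewe, and so favours its lying above them. The shares over all kept genes do not allow for this, so the shares below are no independent check. A left-out TR ewe lay above every CON ewe in 108 of 113 genes (95.6%) for TR4, 108 of 122 (88.5%) for TR1, 118 of 148 (79.7%) for TR2 and 126 of 180 (70.0%) for TR5. For TR3 it was 122 of 240 (50.8%). Over all kept genes the share was 31.9% for TR4, 35.4% for TR1, 17.1% for TR2, 14.4% for TR5 and 13.9% for TR3. The background thus differed between the TR ewes, and each left-out ewe was read in a different set of genes. TR3 had the lowest share of the TR ewes both in the chosen genes and over all kept genes. It was nearer the TR mean in 145 of 240 (60.4%).

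Among the left-out CON ewes CON4 had the lowest shares, and CON1 lay between it and CON2, CON3 and CON5. CON3, CON2 and CON5 lay below every TR ewe in 100 of 105 (95.2%), 106 of 116 (91.4%) and 101 of 113 genes (89.4%), and nearer the CON mean in 85.8 to 88.6%. Over all kept genes these 3 lay below every TR ewe in 36.7 to 37.7%, against 18.3% for CON1 and 13.3% for CON4, so that the background itself differed between the CON ewes. CON1 lay below every TR ewe in 135 of 187 (72.2%) and nearer the CON mean in 82 (43.9%). CON4 lay below every TR ewe in 141 of 373 (37.8%) and nearer the CON mean in 63 (16.9%). In most genes chosen without it, CON4 was therefore closer to the ewes on restricted feed than to the other normally fed ewes. Over all kept genes a left-out library was nearer the mean of its own group in 46.9 to 56.8%. For a left-out CON ewe, the choice likewise favours high values in every TR ewe, and so favours its lying below them. No test was made of these shares, for this reason and since genes of 1 library are not replicates.

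**Figure D4:**
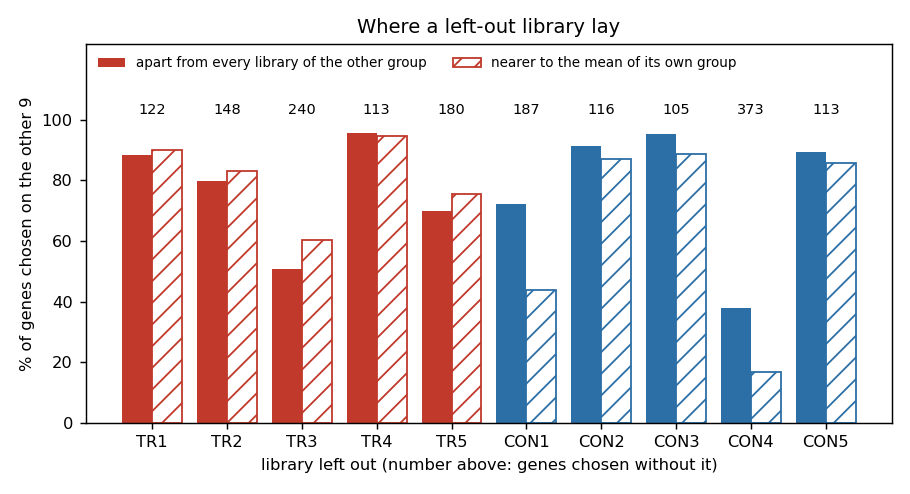
For each library, the genes chosen by the same rule on the other 9 (their number stands above the bars) and where the left-out library lay in them. Filled bars give the percent of these genes in which it was apart from every library of the other group, hatched bars the percent in which it was nearer the mean of its own group, for TR (red, left) and CON (blue, right). CON4 has the lowest bars, at 37.8 and 16.9%, and TR4 the highest, at 95.6 and 94.7%. The rule had used the values of the other group, so the choice itself favours tall filled bars.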

How the data were processed

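RNA of pituitary tissue from 10 ewes (5 TR, 5 CON, 1 library per ewe) was analysed. The authors cleaned the reads, mapped them to the sheep reference 4.0 with HiSAT2 and deposited the FPKM of 17866 genes per library from StringTie. The version of HiSAT2 is not given in the sources used here. Since FPKM had been deposited rather than counts, count models were left aside, and the tables hold no read numbers.

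Size factors were the median ratio to the geometric mean over the 9792 genes above 1 FPKM in all 10 libraries. Genes with at least 0.1 FPKM in 5 or more libraries (14884) were kept, and log2(scaled FPKM + 0.1) was fitted with limma 3.58.1 in R 4.3.3 (trend, robust, Benjamini-Hochberg). Scaling moved the median difference of all genes to 0.05, against 0.23 as deposited, and differences are given on the scaled values. Fold changes on this scale understate those of low genes. The procedure was tested on simulated data. There each gene varied independently, so differences shared by whole libraries, as seen here, were not covered. Other steps used Python 3.11.15, NumPy 2.4.6 and pandas 2.3.3.

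The members, the rule and the alternatives were chosen with earlier results of these data known. Genes given by ID were to be the members of widest gap and highest mean FPKM, because none of the IDs paired with a name in the table of 35057 sheep genes. For the same reason the planned lists of cell type markers and pathways were not run. The alternatives were other scalings, pseudocounts, filters and limits of the rule, each library left out in turn, and limma with array weights, with a block for replicate number, or with neither trend nor robust fitting. The fits without CON1 and CON4, and without the other CON libraries, were added after the data were seen. Relative depth was read from the most common ratio of FPKM under 0.15 between each library and CON1.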

Additional observations from a re-analysis of the deposited data

Results flagged for a closer look

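One library stood far from the rest of its group among 21 sets of 5 values examined (the library measures, the members' levels and zeros and the 2 members given by ID, in each feeding group), where about 1.05 would be expected by chance. The relative depth, read from low FPKM values set against CON1, was 1.35 for CON5, and 0.908 to 1 for the rest of the CON group. It was among the 3 CON libraries in which the members were lowest, and 11 members were listed at 0 in it, against 3 to 9 in the other CON libraries. Over all kept genes, 167 were listed at 0 in CON5, and 98 to 265 in the other CON libraries, with the most in CON3.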

How the results depend on the processing

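The 122 members became 76 with quantile normalization (67 of them shared), 38 with a pseudocount of 1 (all 38 shared), 475 with no minimum difference and 49 with one of 1.5. Leaving out 1 library gave 105 to 373 genes (373 without CON4, 240 without TR3, 187 without CON1), of which 99 to 120 were members. With 2 alternatives added after the values were seen, 165 genes met the rule without CON2, CON3 and CON5 (50 of them members) and 1987 without CON1 and CON4 (120 of them members). CON1 and CON4 were picked as the CON ewes nearest the TR group, so that leaving them out widens the contrast by construction. In the 14 alternatives of scaling, pseudocount and 1 library left out, 25 members met the rule every time. The median difference of the members (1.39) was 0.85 with a pseudocount of 1, 1.26 to 1.49 with 1 library left out, and 0.87 without CON2, CON3 and CON5. The single gene past both limma thresholds became 0 as deposited and without CON2, CON3 and CON5, 2 with a pseudocount of 1, 3408 without CON1 and CON4 (114 members), 1842 with array weights (109 members) and 0 to 1491 with 1 library left out (1491 without CON4, 104 of them members; without CON1 the 1 gene was no member). Where it was 0, between 786 and 5233 genes had an unadjusted p under 0.05. The cause of these changes was not tested. With the replicate block 1132 genes passed, 105 of them members. Whether the replicate numbers pair the ewes was not tested. Deviations of same-numbered ewes correlated at -0.01 to 0.51 over all kept genes. Only 1 TR and 2 CON libraries correlated best with their own number. The low FPKM of most members limits their precision, which the tables do not give.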
